A study of Mus musculus with 3 samples.

Results

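Malat1 and Neat1 are neighbouring genes on mouse chromosome 19 that make long noncoding RNAs kept in the nucleus. Their c-FOS peaks were taken as all peaks of the deposited list whose midpoint lay on chromosome 19 between 5.76 and 5.88 Mb (mm9). That window of 120 kb held 34 of the 15011 peaks of the list. They were set against the 60 other peaks of the surrounding 1 Mb (5 to 6 Mb). Within the window, Malat1 was placed near 5.796 to 5.803 Mb and Neat1 near 5.825 to 5.845 Mb. These bounds are rounded to 1 kb, so a peak is described here by the stretch its midpoint falls in and not by an exon or a transcript. The window was chosen for its peaks, so their number and closeness are a description and carry no test.

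The study located c-FOS by chromatin immunoprecipitation and sequencing in ASZ001, an established line of mouse basal cell carcinoma, in a model of the transition from basal to squamous cell carcinoma. The cells of every sample carried RasV12, an activated Ras, and a knockdown of the TGF-beta receptor TGFbR1 (genotype RasV12_TGFbR1kd), and all had received Dox and 4OHT 6 days before chromatin was fixed. The antibody against c-FOS was used on 2 samples, and 1 input sample had none. The peaks came as 1 list that names no sample, with positions and no score, so neither a spread between the ChIP samples nor a peak strength enters any value below, and the depth behind each peak is unknown. All samples are of 1 cell line under 1 condition, and a change on induction was not analysed here.

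c-FOS pairs with JUN proteins to form AP-1, a transcription factor that drives genes of growth, stress and invasion. AP-1 binds DNA at short motifs such as TGACTCA and TGAGTCA, both covered by the pattern TGANTCA used here. Malat1 RNA gathers in nuclear speckles, bodies rich in splicing factors, and its 3′ end is cut off to give a small tRNA-like RNA, mascRNA. Neat1 RNA is the scaffold of paraspeckles, nuclear bodies built with proteins such as NONO and SFPQ. It is made as a short and a long form that share their 5′ end. In the mouse both genes are transcribed toward lower coordinates, so the upper end of each stretch is the side of the gene's start and the lower end the side of its 3′ end.

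The promoter of Malat1 is shown because 1 peak lay just inside the upper end of the Malat1 stretch. The sequence is RefSeq's on GRCm38.p6, chr19:5802623-5802922, minus strand, written 5′ to 3′. It runs from 250 bases before the annotated start to 50 bases after it, and capitals mark those 50 bases. It belongs to another build than the peaks and was not laid over them.
Malat1: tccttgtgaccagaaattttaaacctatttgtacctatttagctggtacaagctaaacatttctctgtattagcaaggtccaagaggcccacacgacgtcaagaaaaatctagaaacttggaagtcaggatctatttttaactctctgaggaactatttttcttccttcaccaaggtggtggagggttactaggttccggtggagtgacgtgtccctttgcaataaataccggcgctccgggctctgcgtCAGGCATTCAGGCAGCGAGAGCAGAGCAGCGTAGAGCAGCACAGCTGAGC

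On both strands, neither the pattern TGANTCA nor the related motif TGACGTCA, known as a cAMP response element, was found in these 300 bases. Among 32851 RefSeq promoters of the same length, 7.81% held TGANTCA and 1.79% held TGACGTCA. In the order of the RefSeq gene table, Znrd2 and Ltbp3 lie on the lower side of Malat1, and Frmd8, Slc25a45 and Tigd3 follow Neat1. Promoters were matched for 6 genes of this neighbourhood, these 5 and Malat1. Of the 6, 1 held TGANTCA, that of Ltbp3, which encodes a protein that binds latent TGF-beta, and 0 held TGACGTCA. A lack of these letters says only that they are not in this window of sequence.

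Listed peaks lay along the Malat1 stretch from its 3′ side to its upper end, while in the Neat1 stretch they lay at its 3′ side alone. Malat1 held 7 peaks over 7 kb, or 1 per kb, and 34.9% of its length lay under a peak. Neat1 held 6 peaks over 20 kb, or 0.3 per kb, with 4.22% of its length under a peak. The 22 kb between both genes held 11 peaks, 0.5 per kb. The flanks were sparser, with 4 peaks over the 36 kb below Malat1 (0.111 per kb) and 6 over the 35 kb above Neat1 (0.171 per kb). Thus 13 members lay in a gene stretch and 21 outside.

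**Figure D1:**
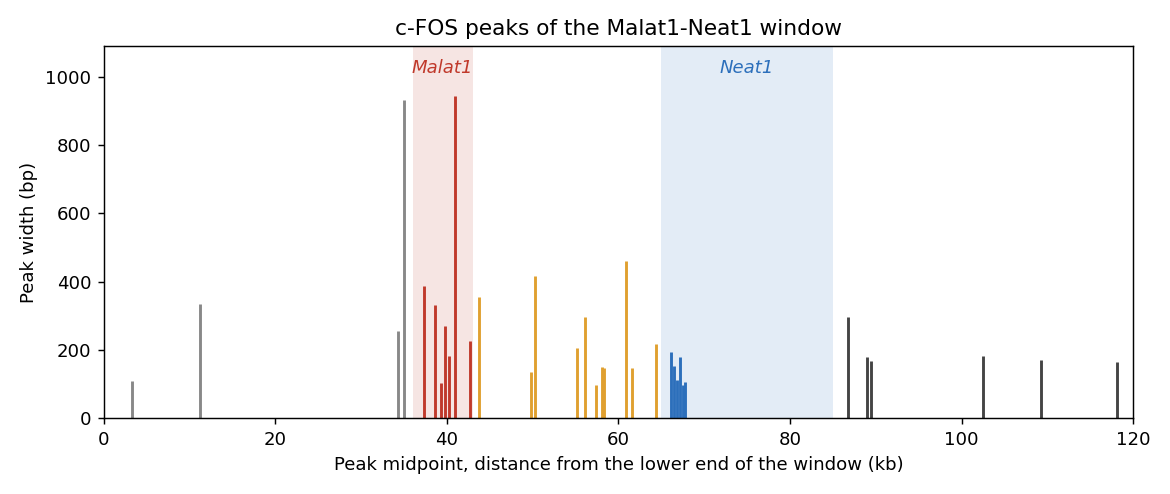
Each vertical line is 1 of the 34 c-FOS peaks, placed by its midpoint in kb from the lower end of the 120 kb window, and its height is the peak's width in bp. Shading marks the Malat1 and Neat1 stretches; the 2 tallest lines are the peak of 943 bp in the Malat1 stretch and that of 931 bp just below it, and most of the Neat1 stretch holds no peak.

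Along Malat1 the first peak lay at 5797111 to 5797498 and measured 388 bp. The next, at 5798497 to 5798827, measured 331 bp. A narrow peak of 102 bp followed at 5799217 to 5799318. Up to here the gaps between neighbours shortened from 998 to 389 bp.

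The middle of the Malat1 stretch carried the closest peaks. A peak of 269 bp at 5799664 to 5799932 was followed after 167 bp by one of 181 bp at 5800100 to 5800280. After a further 154 bp came the widest of all 34 members, 943 bp from 5800435 to 5801377. These first 6 peaks formed a chain with gaps of at most 1 kb, 4267 bp long.

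The start side of Malat1 carried a peak outside that chain. It ran from 5802546 to 5802772 (227 bp), 1168 bp beyond the chain, and ended 228 bp inside the upper bound of the stretch. The next peak, at 5803613 to 5803966 (354 bp), lay 613 bp above that bound, on the upstream side of the gene. A gap of 840 bp divided the 2 peaks, which formed a pair across the bound. With bounds rounded to 1 kb, the distance of either peak to the start of transcription was not determined.

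The 3′ side of Malat1 had a broad peak beyond the stretch. It ran from 5794552 to 5795482, measured 931 bp and ended 518 bp below the lower bound. A peak of 255 bp at 5794212 to 5794466 lay 85 bp from it, the smallest gap among the 33 gaps of the window. These 931 and 943 bp peaks were the widest pair of the surrounding 1 Mb, where the next measured 718 bp (5560421 to 5561138). In the whole list, 17 peaks were at least 931 bp wide.

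At Neat1 all 6 peaks lay within 1769 bp, from 5826074 to 5827842. The first 3 ran from 5826074 to 5826266 (193 bp), 5826382 to 5826534 (153 bp) and 5826804 to 5826915 (112 bp). The other 3 ran from 5827101 to 5827280 (180 bp), 5827471 to 5827568 (98 bp) and 5827736 to 5827842 (107 bp). The 5 gaps between them measured 115 to 269 bp. Their midpoints were 269.5 to 401.5 bp apart. Of the 6, 4 were narrower than the list's median of 158 bp and 2 were wider, and 1 had the smallest width in the list (98 bp). They ended 2842 bp above the lower bound of the stretch.

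The rest of the Neat1 stretch, 17158 bp or 85.8% of it, held no listed peak up to its upper bound. The next peak lay 1629 bp beyond that bound, on the upstream side of Neat1, at 5846629 to 5846925 (297 bp). Its gap to the last Neat1 peak, 18786 bp, was exceeded within the window by 1 gap, the 22835 bp from 5771376 to 5794212 below Malat1. No height or threshold was given with the list, so weaker binding over this part was not assessed.

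**Figure D2:**
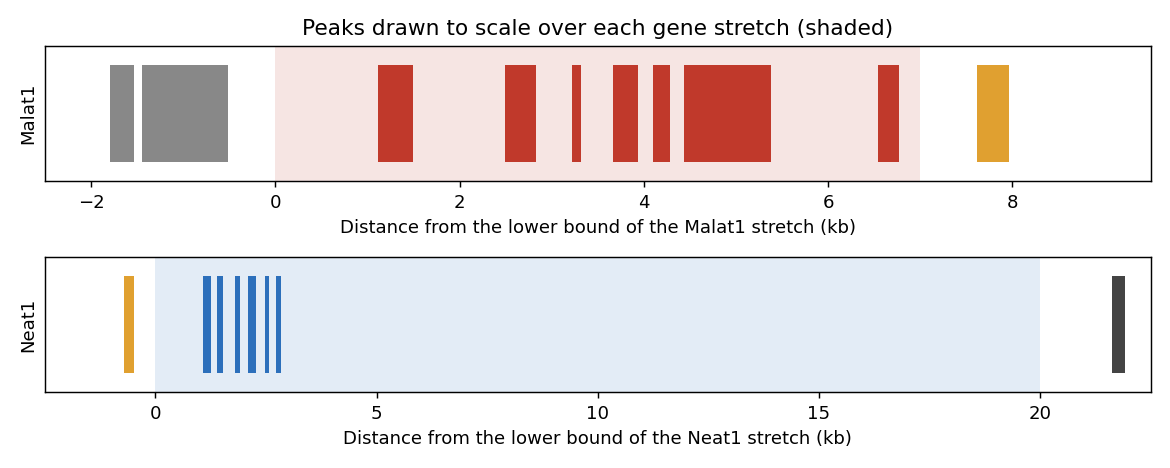
Boxes are peaks drawn to scale along the x axis, in kb from the lower bound of the Malat1 stretch (upper panel) and of the Neat1 stretch (lower panel), with each stretch shaded and 2.5 kb shown on either side. The 7 Malat1 peaks are spread over the stretch, and the 6 Neat1 peaks end 2842 bp above the lower bound.

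Chains of close peaks set both genes beside a few other sites of the list. Of the 12933 chains and single peaks of the list with gaps of at most 1 kb, 14 had 6 or more peaks. The Malat1 and Neat1 chains were 2 of these 14, each with 6 peaks, the smallest size counted. The Malat1 chain reached 6 through a gap of 998 bp, just under the limit, so its place among the 14 depends on that limit. Gaps in the Neat1 chain measured 115 to 269 bp. Longer were 6 chains, up to 10 peaks on chromosome 8 (86721266 to 86727770). The Neat1 chain was the most compact of the 14, with 295 bp per peak against a median of 587 bp and a highest value of 965 bp. The Malat1 chain took 711 bp per peak. The Neat1 chain's median width of 132.5 bp was near the lower end of the 14 chains, where this median ran from 127.5 to 539 bp. In the rest of the 1 Mb the longest chain had 4 peaks (5487743 to 5490428).

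Listed peaks in the stretch between the genes lay mostly in small groups. A pair lay at 5809774 to 5809907 and 5810061 to 5810475 (134 and 415 bp), and a second pair at 5815090 to 5815296 and 5815975 to 5816270 (207 and 296 bp). A group of 3 lay at 5817323 to 5817420 (98 bp), 5818040 to 5818189 (150 bp) and 5818294 to 5818441 (148 bp). Another pair lay at 5820618 to 5821077 and 5821520 to 5821665 (460 and 146 bp). A last peak of 217 bp at 5824293 to 5824509 stood alone, 491 bp below the Neat1 stretch. In the 3 pairs the wider peak measured 296 to 460 bp.

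When gaps of up to 10 kb were bridged, 1 chain ran from just below the Malat1 stretch to the 3′ side of the Neat1 stretch. It held 26 peaks, 76.5% of the members, over 33.6 kb (5794212 to 5827842), which is 28.0% of the window. Of the 10423 chains and single peaks of the list at this distance, 1 was longer, with 28 peaks, on chromosome 11 from 3026972 to 3072430. Elsewhere in the 1 Mb the longest had 7 peaks (5041083 to 5056784).

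The remaining members were scattered. Below Malat1, single peaks lay at 5763263 to 5763371 (109 bp) and 5771042 to 5771376 (335 bp). Above Neat1, a pair of 178 and 167 bp lay at 5848892 to 5849069 and 5849297 to 5849463. Single peaks followed at 5862366 to 5862548 (183 bp), 5869203 to 5869373 (171 bp) and 5878008 to 5878172 (165 bp). Gene order puts Frmd8, a partner of the iRhom proteins that govern the shedding enzyme ADAM17, on this upper side. No peak was assigned to it, since no mm9 gene model was used.

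Peaks just inside and outside the window bounds were of similar width. Nearest below the lower bound was a peak of 104 bp at 5756465 to 5756568, its midpoint 3484 bp away, and the first member lay 3317 bp inside. At the upper bound the last member lay 1910 bp inside, and the next peak outside, of 146 bp, was 50084 bp away at 5930011 to 5930156. The upper bound therefore falls in an empty stretch, whereas the lower one divides 2 peaks at similar distances.

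The window was denser than its surroundings by the choice that defined it. It held 36.2% of the 94 peaks of the 1 Mb on 12% of the length, at 283 peaks per Mb against 68.2 in the rest, a ratio of 4.16. The ratio was 2.73 after peaks within 1 kb were merged and 6.65 for peaks wholly inside the span from the Malat1 to the Neat1 stretch. Peaks covered 7.25% of the window and 1.46% of the rest. After that merging 12.4% of the window lay in merged regions, which include the gaps between their peaks. Peaks covered 12.1% of the span from the Malat1 to the Neat1 stretch. The 7 other whole tiles of 120 kb in that 1 Mb held 2 to 14 peaks with a median of 8.

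Across the genome, 6197 tiles of 120 kb held at least 1 peak, with a median of 2 and a 99th percentile of 11. The window, which is itself 1 of these tiles, held the most, so that 0.0161% of tiles reached its count. Next came a tile of chromosome 11 from 3000001 to 3120000, with 32 peaks. With peaks within 1 kb merged, the window kept 16 regions and again ranked first, before a tile of chromosome 8 (19920001 to 20040000) with 14. Since position chose the members, these ranks describe the list and support nothing further.

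**Figure D3:**
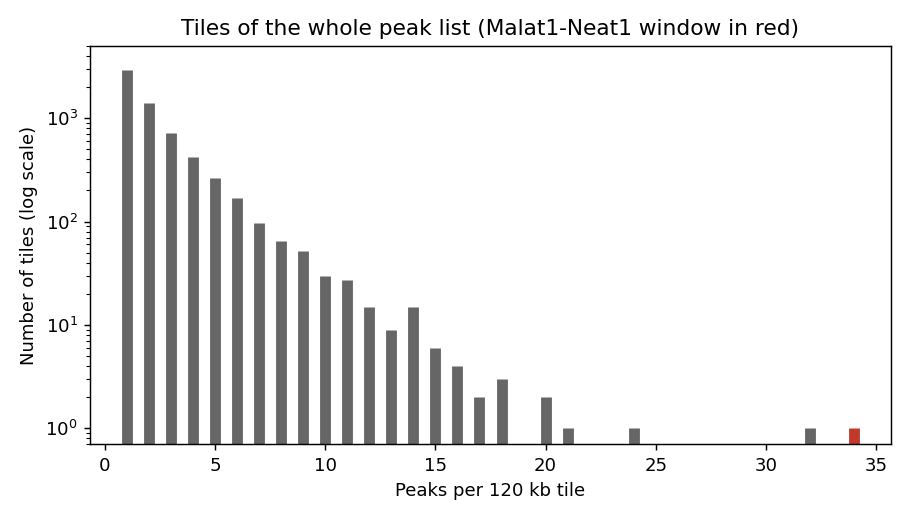
The x axis gives the number of c-FOS peaks in a 120 kb tile and the y axis, on a log scale, how many of the 6197 tiles with a peak hold that number. The red bar is the Malat1-Neat1 window with 34 peaks, and the tile next to it in rank holds 32.

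**Figure D4:**
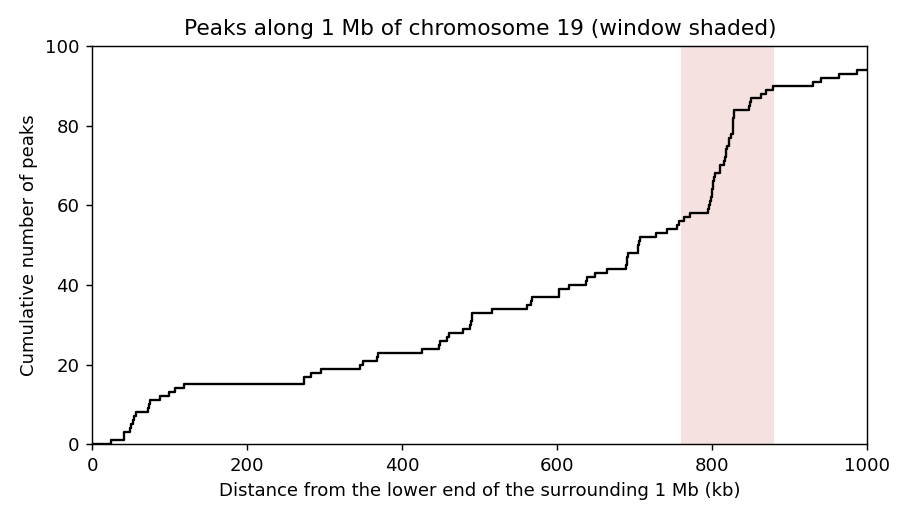
The line counts peaks from the lower to the upper end of the surrounding 1 Mb, with distance in kb on the x axis and the running number of peaks, up to 94, on the y axis. The steepest climb lies in the shaded 120 kb window, and within it over the 33.6 kb that hold 26 peaks.

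Close neighbours were common among the members. A neighbour within 1 kb was listed for 27 of 34 (79.4%, Wilson 95% interval 63.2 to 89.7%), against 24.9% of all peaks in the list. In the rest of the 1 Mb the share was 28 of 60 (46.7%, 34.6 to 59.1%), and in the rest of chromosome 19 it was 33.8%. All 7 peaks in the Malat1 stretch and all 6 in the Neat1 stretch had such a neighbour, as did 10 of 11 between them, but only 2 of 4 below Malat1 and 2 of 6 above Neat1. Within 10 kb every member had a neighbour, against 48.7% of the list. These intervals reflect counting error alone, and they take peaks to be independent, which close neighbours are not.

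Width was not used to choose the members. Their median width was 182 bp (range 98 to 943), against 160 bp (98 to 718) for the other peaks of the 1 Mb and 158 bp for the list. Wider than the list's median were 23 of 34 members (67.6%) and 31 of 60 others (51.7%), against 50.0% of the list. The ranges overlap almost fully, and with 1 list and no replicate the difference of 22 bp was not tested. It was 9 bp among peaks wider than the list's median. After peaks within 1 kb were merged it was 456 bp, but merged regions include the gaps between peaks. That value therefore reflects closeness as well as width. Peaks over 500 bp numbered 2 of 34 members and 4 of 60 others, against 1.75% of the list. The smallest width of 98 bp was found in 2 members and 6 others, against 10.7% of the list.

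Among the members, the median width varied by stretch from 132.5 to 295 bp, again with no test. The median was 269 bp at Malat1 (102 to 943) and 132.5 bp at Neat1 (98 to 193). At Malat1 6 of 7 peaks exceeded the list's median, and at Neat1 2 of 6 did. Between the genes the median was 207 bp (98 to 460), below Malat1 295 bp (109 to 931) and above Neat1 174.5 bp (165 to 297). The Malat1 and Neat1 ranges overlapped, since the Malat1 peaks of 102 and 181 bp were narrower than the widest Neat1 peak.

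**Figure D5:**
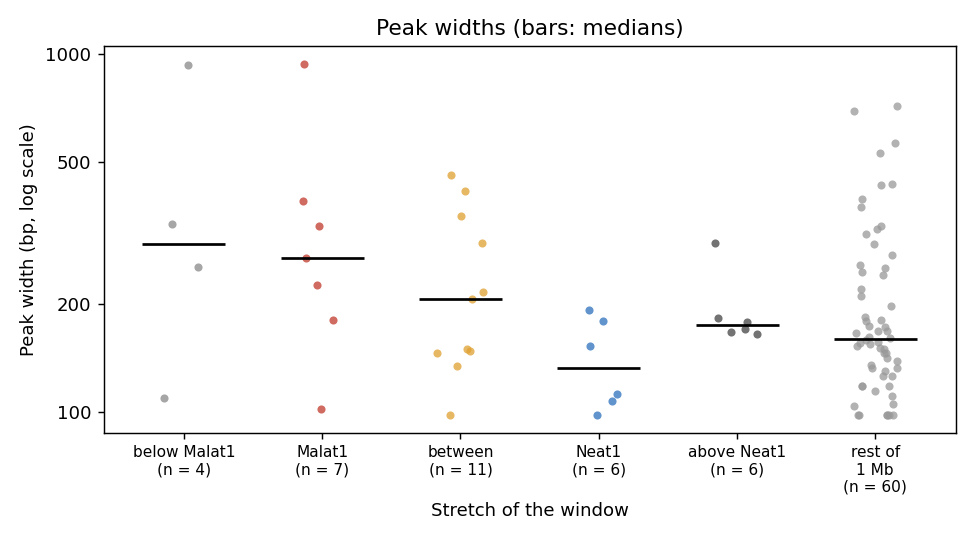
Points are single peaks, grouped on the x axis by stretch of the window and for the rest of the surrounding 1 Mb, with width in bp on a log scale on the y axis and medians as bars. Malat1 peaks reach 943 bp, while the 6 Neat1 peaks lie between 98 and 193 bp.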

How the data were processed

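Reads were aligned with Bowtie2 to mm9 and peaks called with MACS2, per the submitters' processing notes. Not given in the sources used here: tool versions, the threshold for peaks, whether input served as control, and whether both ChIP samples were pooled. The list as deposited holds 3 columns, chromosome, start and end, for 15011 peaks, none overlapping. All of them were used, and no filter for regions prone to false ChIP signal was added here. Groups came from the sample titles. Coordinates are printed 1-based. A gap is the number of bases between neighbouring peaks. Counts, widths, gaps, chains and tiles of 120 kb were computed with Python 3.11.15, numpy 2.4.6 and scipy 1.17.1, and the functions were tested on simulated peaks. Figures used matplotlib 3.10.9. Peaks of 1 list are not replicates, so no test was run, and the depth is unknown. An mm9 genome and annotation were not used here, so motifs within peaks, gene models and other speckle and paraspeckle genes were not analysed. All members are named with their positions; the genes named are Malat1, Neat1 and neighbours among the 3 nearest on either side, of which not all are reported here. Members, lists and settings were chosen with earlier results of these data known. Alternatives were other width limits, merging of peaks and other window bounds.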

Additional observations from a re-analysis of the deposited data

How the results depend on the processing

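Over 6 alternatives, 29 values were recomputed for the 5 window results, and 20 stayed close to the values above: within 1.5 times for counts, coverage and the width difference, or within the counting interval for the share with a close neighbour and the density ratio. Merging peaks within 1000 bp left 16 regions and a density ratio of 2.73, where the counting interval of the unmerged ratio was 2.74 to 6.31. That interval takes peaks to be independent, in a window chosen for its peaks, and served only as a limit for this sorting. Merging also gave 12.4% coverage and a width difference of 456 bp, but merged regions include the gaps between their peaks. After merging, the share with a neighbour within 1 kb has no meaning and was not computed. Restricting members to peaks wholly inside the span from the Malat1 to the Neat1 stretch gave a density ratio of 6.65, 95.8% with a close neighbour and 12.1% coverage. Narrowing the window by 20 kb on either side gave 93.1% with a close neighbour. With peaks wider than the list's median alone, the width difference was 9 bp. Of the 5 results only the density ratio and the width difference have a direction, and neither reversed. The direction of the ratio was set by the choice of the window. No paired analysis was possible because the peak list names no sample, and for the same reason no replicate could be left out. Unknown depth limits every absence of a peak.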
